A study of Mus musculus with 8 samples.

Results

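The 36 genes described here are known imprinted genes of the mouse, taken as a fixed list by name from the 55358 genes in the files. All 36 were found. They were measured by RNA sequencing in mouse embryonic fibroblasts, cells grown out of the embryo that are mostly of connective tissue type. The 8 libraries fall into 4 groups of 2: wild-type cells (WT) without interleukin-6 (IL-6), WT cells with IL-6 at 100 ng/ml, cells lacking Arid5a (Arid5a-/-, here KO) without IL-6, and KO cells with the same dose, all for 24 h. Arid5a is an RNA-binding protein of the AT-rich interaction domain family, and the series was made to look for long noncoding RNAs linked to IL-6 and Arid5a. The labels do not give the strain, the deleted part of Arid5a, or whether 2 libraries of one group are from different embryos or cultures, so a p-value here reflects the spread among libraries alone, and that spread may be technical.

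An imprinted gene is expressed from only the copy inherited from the mother, or only the copy inherited from the father. The choice is set in the germ line by DNA methylation at control regions, and is kept through cell division by DNA methyltransferases together with zinc finger proteins such as ZFP57, which binds a methylated hexamer and recruits TRIM28. Most imprinted genes lie in clusters that share a control region and often hold a noncoding RNA that silences its neighbours. Many act on growth of the fetus and placenta, and their levels usually fall in the tissues after birth. Sequencing without a polymorphism between the parental copies gives the summed level of both, so the values below say nothing of which copy was read.

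Several facts of the series bear on every genotype result. Arid5a itself was at 18.7 and 15.9 FPKM (fragments per kilobase of transcript, scaled by the depth of the library) in WT alone, meaning without IL-6, 30.86 and 30.99 in IL-6-treated WT, 5.51 and 6.85 in KO alone and 8.47 and 8.15 in IL-6-treated KO, so it was lower in all 4 KO libraries but not absent, and the deleted part is not known here. Xist, the RNA of the inactive X chromosome, was at most 0.00562 FPKM in the 4 WT libraries and 55.2 to 61.02 in the 4 KO libraries, while the Y-linked Ddx3y was 34.6 to 36.6 in WT and at most 0.00746 in KO. Genotype and sex of the cells therefore cannot be told apart. All 8 fibroblast markers were above 1 FPKM in WT, while in KO Thy1 was below it (0.414 to 0.919, against 2.61 to 3.49 in WT). Their summed level was 2985 to 3739 FPKM in WT and 3723 to 3980 in KO. That sum hides differences in both directions, with 3 of the 8 higher and 4 lower in untreated KO. Pdgfrb was at 48.1 to 50.3 FPKM in WT and 6.97 to 7.40 in KO. Fbln2 was at 72.4 to 118 FPKM in WT and 427 to 448 in KO. The 7 neuron markers summed to 108 to 158 FPKM in WT and 19.5 to 24.5 in KO, with Rbfox3 at 0 in all libraries; Stmn2 (82.6 to 135 in WT, at most 0.0132 in KO) carried most of the sum, while Tubb3 went the other way (7.85 to 10.1 in WT, 17.4 to 22.1 in KO). The 4 epithelium markers summed to 1.15 to 1.69 FPKM in WT and 20.8 to 21.2 in KO. That rise came from Cdh1, Krt8 and Krt18, while Epcam overlapped between the genotypes (0.421 to 0.662 in WT, 0.487 to 0.636 in KO). The 4 endothelium markers summed to 0.0689 to 0.181 FPKM in WT and 10.8 to 12.03 in KO (all but a trace from Tek and Kdr, with Pecam1 and Cdh5 at most 0.105 in any library). All 5 trophoblast markers were listed at 0 throughout. The part of sex or of these marker differences in the results below was not tested, and in bulk RNA fewer cells of a type and less RNA per cell cannot be told apart.

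Promoter sequences of 4 members are shown because these genes had the clearest differences between the genotypes among those with a window, in both directions. Each is the 300 bases from 250 before to 50 after a RefSeq transcription start, in assembly GRCm38.p6, written 5′ to 3′ on the strand of the gene, with the hexamer TGCCGC (the motif known for ZFP57) or its reverse complement GCGGCA in capitals. The window of Peg3 (chr7:6730370-6730669, minus strand) holds no match. That of Mest (chr6:30737800-30738099, plus strand), at the start of its main transcript in KO, holds 2. The windows of Nnat (chr2:157559828-157560127, plus strand) and Plagl1 (chr10:13090582-13090881, plus strand) hold 1 each.
Peg3: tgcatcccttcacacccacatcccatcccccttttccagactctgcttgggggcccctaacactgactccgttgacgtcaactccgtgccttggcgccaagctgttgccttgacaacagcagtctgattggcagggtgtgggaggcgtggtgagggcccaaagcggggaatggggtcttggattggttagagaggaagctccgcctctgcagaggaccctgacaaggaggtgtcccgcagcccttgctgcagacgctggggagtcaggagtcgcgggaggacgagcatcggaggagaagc
Mest: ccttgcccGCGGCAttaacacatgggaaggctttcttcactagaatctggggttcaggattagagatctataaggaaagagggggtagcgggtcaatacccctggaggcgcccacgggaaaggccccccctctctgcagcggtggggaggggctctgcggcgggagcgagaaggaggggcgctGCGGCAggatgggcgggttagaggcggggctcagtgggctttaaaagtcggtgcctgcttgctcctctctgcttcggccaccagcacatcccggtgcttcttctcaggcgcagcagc
Nnat: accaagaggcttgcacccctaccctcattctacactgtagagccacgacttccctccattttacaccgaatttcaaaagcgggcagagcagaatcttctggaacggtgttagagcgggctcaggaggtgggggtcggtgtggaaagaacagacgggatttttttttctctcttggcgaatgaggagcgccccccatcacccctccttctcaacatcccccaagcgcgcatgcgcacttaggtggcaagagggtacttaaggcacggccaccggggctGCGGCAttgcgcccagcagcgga
Plagl1: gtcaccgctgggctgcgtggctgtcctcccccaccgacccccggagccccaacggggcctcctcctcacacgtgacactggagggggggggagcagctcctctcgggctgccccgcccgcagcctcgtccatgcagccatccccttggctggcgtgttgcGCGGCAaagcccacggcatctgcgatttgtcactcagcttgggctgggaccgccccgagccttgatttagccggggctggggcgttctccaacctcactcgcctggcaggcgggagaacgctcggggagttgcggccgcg

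RefSeq windows were matched for 28 of the 36 members, 42 windows in all. The hexamer, searched on both strands, lay in 12 of the 42 (28.6%, in 11 members), against 11.6% of all 32851 windows of that length. Windows that nearly coincide were counted separately, such as those of Mest starting at 30737800 and 30737803, which both hold the hexamer. The member windows also held more CpG dinucleotides, with a median of 13 against 7 over all windows, and the part of CpG content in the share of windows with the hexamer was not tested. Of the printed windows, that of Plagl1, which was lower in KO, and those of Mest and Nnat, which were higher, hold it, and that of Peg3, which was higher, does not. A match is a description of the letters and not a binding site.

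**Figure D1:**
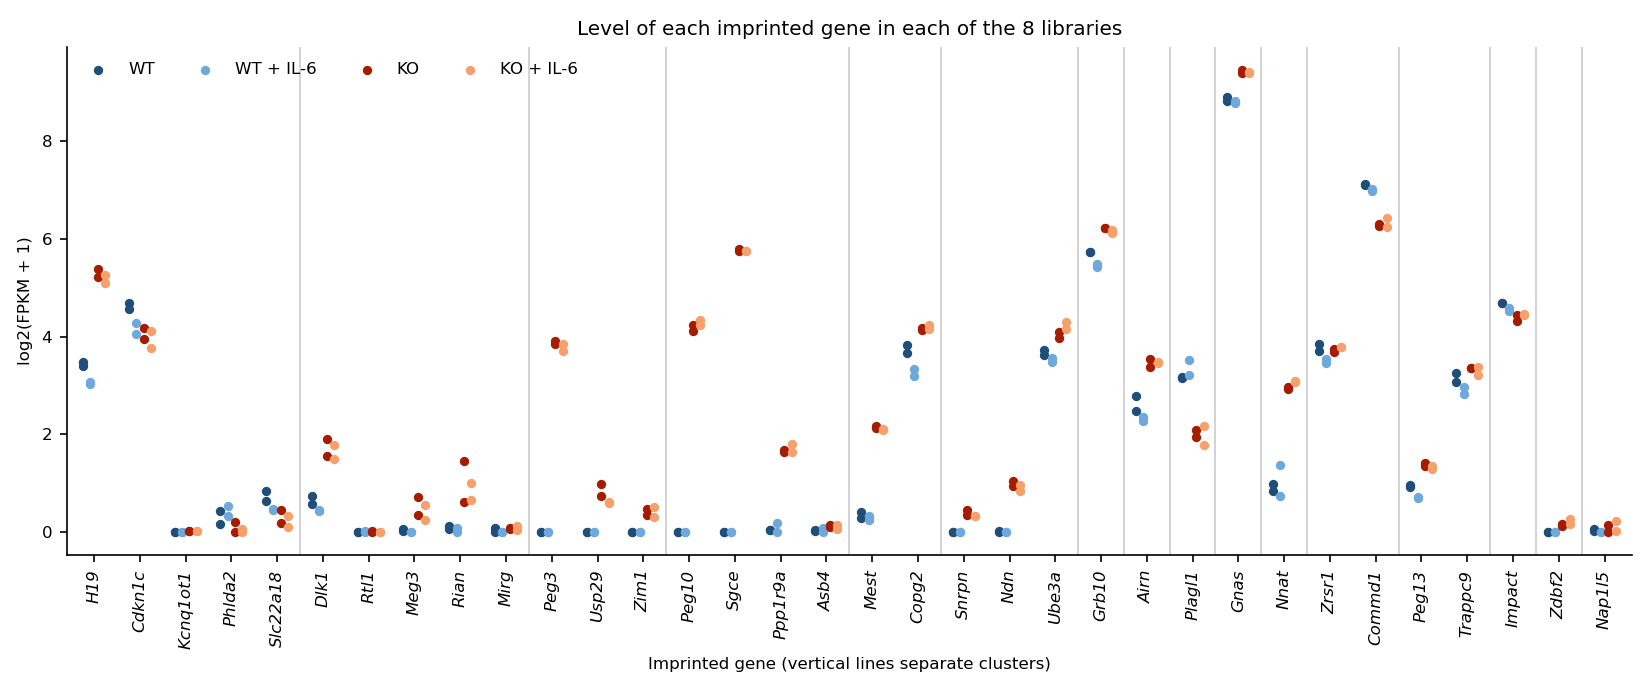
Level of the 34 imprinted genes above 0 in any library, as log2(FPKM + 1), 1 point per library, coloured by group, with vertical lines between clusters. Peg3, Peg10 and Sgce lie at 0 in the 4 WT libraries and at 11.9 to 54.5 FPKM in the 4 KO libraries, whereas Gnas, Commd1 and Grb10 are high in both genotypes.

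Between the genotypes, 18 of the 20 imprinted genes tested were called without IL-6, where 71.0% of all genes tested were called too. Of the 36 members, 20 reached 1 FPKM in at least 2 libraries and were tested. Of these, 13 had at least 1 library at 1 FPKM in each genotype. The other 7 (Dlk1, Peg3, Peg10, Sgce, Ppp1r9a, Mest and Peg13) reached it only in KO libraries. A test called a gene when its adjusted p was below 0.05 in limma on log2(FPKM + 1), adjusted by Benjamini-Hochberg over all 13693 genes tested. In KO against WT without IL-6, 14 members rose and 4 fell, beside 71.0% of all genes tested called (36.4% higher and 34.5% lower). With IL-6, 16 rose and 2 fell, beside 71.7% of all genes (36.9% higher and 34.8% lower). The 7 members that passed through KO libraries alone had to be higher there, so their calls and p-values are no support for a rise. The other 13 are therefore given apart. Of these, 7 rose and 4 fell without IL-6, with a median difference of 0.35 on the log2 scale against 0.01 over all genes tested. Nnat is among the 13, but only 1 of its WT libraries reached 1 FPKM (1.58), so it too passed the filter through its KO libraries.

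**Figure D2:**
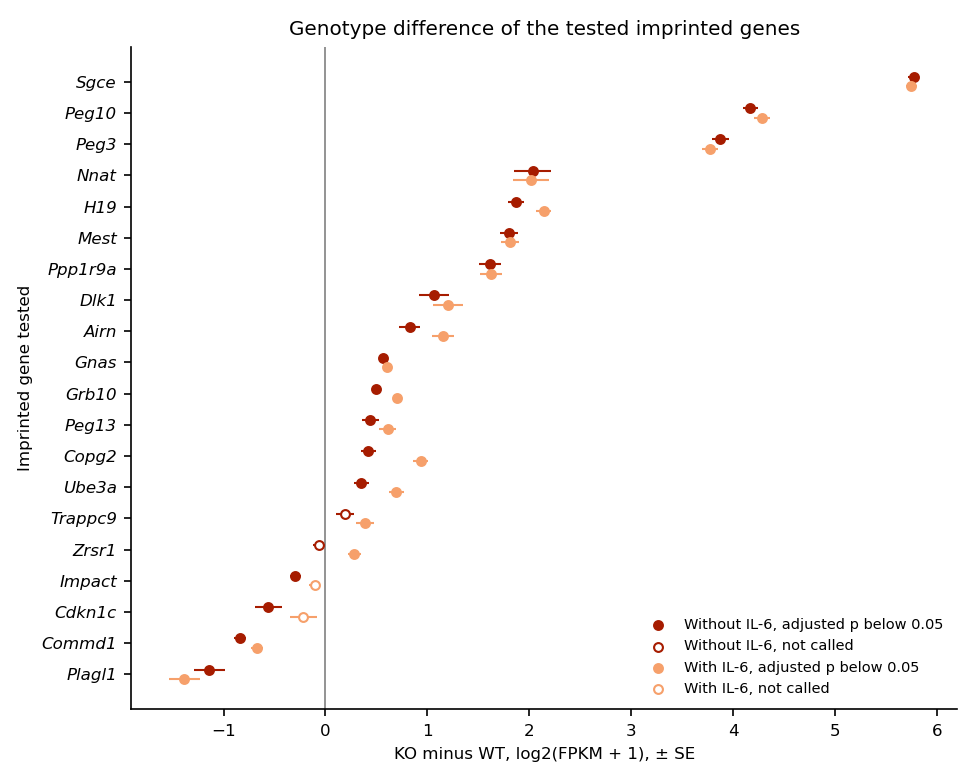
Difference between KO and WT of each of the 20 imprinted genes tested, on the log2(FPKM + 1) scale with its standard error, without IL-6 (dark) and with IL-6 (light); filled points passed an adjusted p of 0.05. Sgce, Peg10 and Peg3 lie at 3.77 to 5.78, and Plagl1 and Commd1 are the lowest, from -1.39 to -0.67.

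The paternally expressed pair Sgce and Peg10 gave the largest contrast. Sgce, which encodes epsilon-sarcoglycan of the dystrophin-associated membrane complex, was listed at 0 in all 4 WT libraries and was at 53.1 and 54.5 FPKM in KO alone and 52.6 and 52.8 in IL-6-treated KO. Peg10, a retrotransposon-derived gene needed for the placenta, was likewise listed at 0 in the 4 WT libraries, against 17.8 and 16.2 FPKM in KO alone and 17.8 and 19.2 in IL-6-treated KO. The start sites of the 2 genes lie 0.099 kb apart on opposite strands of chromosome 6 (Sgce 4674350 to 4747207, minus strand, and Peg10 4747306 to 4760517, plus strand, in GENCODE on GRCm38). Their levels in KO varied little between libraries, and no WT library held any value for either. In KO the transcript Sgce-205 made up 76.6% of the gene's summed FPKM, and Peg10-201 and Peg10-203 made up 50.9% and 44.0%, all listed at 0 in WT.

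The other members of that cluster, both maternally expressed, were low in WT. Ppp1r9a, a maternally expressed gene for the actin-binding protein neurabin, was at 0.0329, 0.0269, 0.00276 and 0.137 FPKM in the WT libraries and 2.2004, 2.11, 2.11 and 2.50 in the KO libraries (log2 difference without IL-6 1.61 ± 0.11, limma adjusted p = 5.84e-06). Every KO library was above every WT library. Asb4, a maternally expressed ubiquitin ligase adaptor, stayed under the level for testing, with 0.106 FPKM as its highest library, and its genotypes overlapped.

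Peg3, a paternally expressed zinc finger gene linked to maternal behaviour and growth, was listed at 0 in all 4 WT libraries. In KO it was at 14.1 and 13.3 FPKM without IL-6 and 11.9 and 13.4 with it, and 94.9% of this came from Peg3-201. Usp29, a paternally expressed gene that starts 0.147 kb from Peg3 on the other strand, was listed at 0 in WT and was at 0.672, 0.968, 0.539 and 0.513 FPKM in the KO libraries. The maternally expressed Zim1, a zinc finger gene at -33.98 kb from the start of Peg3, was also listed at 0 in WT and was at 0.262, 0.389, 0.239 and 0.430 FPKM in KO. All 3 of these members, 2 paternally and 1 maternally expressed, were thus listed at 0 in the WT libraries and above 0 in every KO library. Peg3, Peg10 and Sgce were called in both genotype comparisons (limma adjusted p of 1.27e-08 or less). They passed the filter through KO libraries alone, so the direction was fixed beforehand and the calls add nothing to the listed values. Their fitted differences of 3.77 to 5.78 depend on the added 1 FPKM and are not bounds.

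Depth sets what a listed 0 can mean. From the steps between low values, the libraries held 36700000 to 46200000 fragments, and 1 fragment on Peg3-201 was worth 0.0025 to 0.0032 FPKM. None of 10 housekeeping genes was listed at 0 in any library, and their lowest value was 18.3 FPKM. Across all genes, 50 were listed at 0 in the 4 WT libraries and at 1 FPKM or more in all 4 KO libraries, 0.365% of the number tested, and 3 of them were members. At 10 FPKM or more there were 13 such genes, and the same 3 members were among them. The opposite pattern held 24 genes at 1 FPKM and 1 gene at 10 FPKM, with no member in either.

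Mest, a paternally expressed gene of the mesoderm that encodes a hydrolase-like protein, was at 0.329 and 0.219 FPKM in WT alone, 0.188 and 0.2505 in IL-6-treated WT, 3.49 and 3.39 in KO alone and 3.25 and 3.29 in IL-6-treated KO. The genotypes did not overlap, and KO was 13.6-fold above WT by the means of 4 libraries (log2 difference without IL-6 1.80 ± 0.09, limma adjusted p = 9.91e-07). The transcripts separated the genotypes further. Mest-211, which starts at position 30738050 of chromosome 6 within the printed window, was listed at 0 in all WT libraries and at 2.81 to 3.44 FPKM in KO. The small WT value came from Mest-210, which starts upstream at 30733506 and was at 0.105 to 0.181 FPKM in WT and at most 0.00958 in KO, and from Mest-208 (0.0375 to 0.161 FPKM in WT). Copg2, a maternally expressed coat protein gene that overlaps the end of Mest on the other strand, was at 13.2 and 11.6 FPKM in WT alone, 8.15 and 9.03 in IL-6-treated WT, 16.6 and 17.2 in KO alone and 17.8 and 16.9 in IL-6-treated KO. It rose in KO by 0.42 ± 0.07 without IL-6 (limma adjusted p = 0.00149) and 0.94 ± 0.07 with it (1.67e-05), and here too no WT library reached the lowest KO library. Because counting by strand is not stated, reads from the shared stretch cannot be assigned to one gene with certainty.

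H19, the maternally expressed noncoding RNA that shares enhancers with the growth factor gene Igf2, was at 9.49 and 10.1 FPKM in WT alone, 7.36 and 7.10 in IL-6-treated WT, 40.5 and 36.3 in KO alone and 33.4 and 37.4 in IL-6-treated KO. The KO mean was 4.34 times that of WT (log2 difference without IL-6 1.87 ± 0.07, limma adjusted p = 3.62e-07). Igf2, the reciprocal paternally expressed gene and not one of the 36, was at 0.0436 to 0.0758 FPKM in WT and 9.61 to 11.9 in KO. Both genes of the pair, which are read from opposite parental copies, were thus higher in every KO library. In the adjoining Kcnq1 cluster 1 member was tested. Cdkn1c, the maternally expressed inhibitor of cyclin-dependent kinases p57, was at 24.7 and 22.7 FPKM in WT alone, 18.3 and 15.7 in IL-6-treated WT, 17.1 and 14.5 in KO alone and 12.7 and 16.4 in IL-6-treated KO. It fell in KO without IL-6 (-0.56 ± 0.13, limma adjusted p = 0.00592), whereas with IL-6 the groups overlapped and the difference of -0.22 ± 0.13 was not called (0.170). The other maternally expressed genes there, Slc22a18 (highest library 0.776 FPKM, WT) and Phlda2 (0.440 FPKM, WT), and the paternally expressed silencing RNA Kcnq1ot1 (0.0170 FPKM, KO) were under the level for testing.

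In the Dlk1-Meg3 cluster, levels were low in both genotypes. Dlk1, a paternally expressed Notch-like inhibitor of adipocyte differentiation, was at 0.661 and 0.492 FPKM in WT alone, 0.350 and 0.356 in IL-6-treated WT, 1.93 and 2.71 in KO alone and 1.80 and 2.45 in IL-6-treated KO (1.07 ± 0.15 without IL-6, limma adjusted p = 0.000405). The KO libraries differed among themselves by more than the WT libraries did but stayed above all of them. The maternally expressed noncoding RNAs Meg3 (highest library 0.641 FPKM), Rian (1.73 FPKM) and Mirg (0.0937 FPKM) had their highest library in KO and were not tested, Rian because only 1 library reached 1 FPKM. Rtl1, the paternally expressed retrotransposon-like gene antisense to part of this locus, did not exceed 0.0124 FPKM.

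In the Prader-Willi and Angelman region, named for the human disorders of the paternal and maternal copy, paternally expressed genes were low or listed at 0 in WT. Ndn, encoding the growth suppressor necdin, was at 0.00701 FPKM in 1 WT library and listed at 0 in the other 3, against 1.05, 0.912, 0.951 and 0.794 in the KO libraries. Snrpn, encoding a splicing protein, was listed at 0 in WT and was at 0.368, 0.277, 0.255 and 0.256 FPKM in KO. Snurf, which overlaps Snrpn on the same strand, was listed at 0 in WT and was at 0, 0.0192, 0.0372 and 0.813 FPKM in KO. How reads were split between Snrpn and Snurf was not tested. Magel2 was listed at 0 in all 8 libraries. The maternally expressed gene of the region, Ube3a, a ubiquitin ligase imprinted in neurons and read from both copies in most other cells, was present in both genotypes at 11.3 and 12.3 FPKM in WT alone, 10.8 and 10.2 in IL-6-treated WT, 16.01 and 14.7 in KO alone and 18.6 and 16.7 in IL-6-treated KO. It rose in KO by 0.35 ± 0.07 without IL-6 (limma adjusted p = 0.00358) and by 0.69 ± 0.07 with it (8.59e-05); the genotypes did not overlap.

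The growth regulators Grb10 and Plagl1 went in opposite directions. Grb10, an adaptor that restrains insulin and growth factor receptors and is maternally expressed outside neurons, was at 51.8 and 52.0 FPKM in WT alone, 41.8 and 43.8 in IL-6-treated WT, 73.9 and 73.3 in KO alone and 69.1 and 71.4 in IL-6-treated KO (0.50 ± 0.04 without IL-6, limma adjusted p = 1.57e-05). Its main transcript Grb10-201 carried 95.7% of the level in WT and 98.2% in KO. Grb10-203, which starts downstream at position 12027971 of chromosome 11, had the reverse order, with 1.60 to 2.44 FPKM in WT and 0.788 to 0.982 in KO. Plagl1, a paternally expressed zinc finger factor that restrains proliferation, was at 8.00 and 7.85 FPKM in WT alone, 10.5 and 8.23 in IL-6-treated WT, 3.27 and 2.84 in KO alone and 2.43 and 3.52 in IL-6-treated KO. It fell in KO by 1.14 on the log2 scale without IL-6 (SE 0.15, limma adjusted p = 0.000288), and every KO library was below every WT library. Among the paternally expressed members it had the largest fall.

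Gnas was the most abundant member. It encodes the stimulatory G protein alpha subunit from both copies in most cells, and other products from promoters used on one copy only. It was at 477 and 453 FPKM in WT alone, 437 and 453 in IL-6-treated WT, 677 and 701 in KO alone and 682 and 675 in IL-6-treated KO, and rose in KO by 0.57 ± 0.04 (limma adjusted p = 9.86e-06). Gnas-208, which starts at position 174330089 of chromosome 2, carried 63.1% of this in WT and 67.0% in KO. Gnas-211 starts much farther upstream, at 174284320. It was listed at 0 in all 4 WT libraries and was at 0.853, 1.24, 1.07 and 1.27 FPKM in the KO libraries, 0.162% of the KO sum. Nnat, a paternally expressed membrane proteolipid of the endoplasmic reticulum, was at 0.986 and 0.790 FPKM in WT alone, 1.58 and 0.675 in IL-6-treated WT, 6.61 and 6.83 in KO alone and 7.47 and 7.37 in IL-6-treated KO (2.03 ± 0.18 without IL-6, limma adjusted p = 3.12e-05). The genotypes did not overlap, and Nnat lies inside Blcap on the other strand, which leaves its reads uncertain without strand.

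The silencing RNA Airn, paternally expressed and antisense to Igf2r, was at 4.59 and 5.85 FPKM in WT alone, 3.83 and 4.08 in IL-6-treated WT, 9.38 and 10.6 in KO alone and 9.96 and 10.1 in IL-6-treated KO (0.83 ± 0.10 without IL-6, limma adjusted p = 0.000224). Igf2r, the maternally expressed receptor that clears IGF2, is not one of the 36 and was at 15.4 to 19.5 FPKM in WT and 13.7 to 14.4 in KO. It fell without IL-6 (-0.40 ± 0.05, limma adjusted p = 0.000349), in the direction opposite to its antisense RNA, and the 2 overlap, with the same uncertainty. The Igf2r means were 18.7 FPKM in WT and 13.9 in KO without IL-6, and lay closer with it, at 15.5 and 14.03. Airn rose by 1.15 ± 0.10 in KO with IL-6 (limma adjusted p = 3.28e-05). Slc22a3, a maternally expressed organic cation carrier of the same cluster in placenta, was listed at 0 in all 8 libraries.

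The remaining loci held differences in both directions. Commd1, a copper and NF-kappaB regulator with maternal bias, was at 139 and 137 FPKM in WT alone, 125 and 128 in IL-6-treated WT, 78.2 and 75.3 in KO alone and 74.5 and 84.6 in IL-6-treated KO, and fell by 0.84 on the log2 scale without IL-6 (SE 0.06, limma adjusted p = 8.44e-06). Zrsr1, a paternally expressed retrogene for a splicing factor inside Commd1, was at 12.01 and 13.3 FPKM in WT alone, 10.7 and 10.1 in IL-6-treated WT, 12.4 and 11.8 in KO alone and 12.8 and 12.9 in IL-6-treated KO. Its genotype difference was not called without IL-6 (-0.06 ± 0.06, limma adjusted p = 0.400) and was with it (0.28 ± 0.06, 0.00469). Without IL-6 the host thus fell and the retrogene was not called, and their reads overlap, so the split between them is uncertain. Peg13, a paternally expressed noncoding RNA in an intron of Trappc9, was at 0.948 and 0.887 FPKM in WT alone, 0.638 and 0.621 in IL-6-treated WT, 1.54 and 1.67 in KO alone and 1.56 and 1.42 in IL-6-treated KO (0.44 ± 0.08 without IL-6, limma adjusted p = 0.00218). Peg13 lies on the same strand as Trappc9, and whether Trappc9 reads enter its value was not tested. Trappc9, a vesicle transport gene with maternal bias in brain, was at 8.56 and 7.43 FPKM in WT alone, 6.09 and 6.84 in IL-6-treated WT, 9.19 and 9.27 in KO alone and 8.24 and 9.32 in IL-6-treated KO, a rise called with IL-6 (0.39 ± 0.09, limma adjusted p = 0.00521) and not without (0.0936). Impact, a paternally expressed regulator of translation under amino acid shortage, was at 24.6 and 24.7 FPKM in WT alone, 22.95 and 22.1 in IL-6-treated WT, 20.8 and 19.04 in KO alone and 20.8 and 21.003 in IL-6-treated KO. It fell in KO without IL-6 (-0.30 ± 0.05, limma adjusted p = 0.00131), the smallest of the 4 falls called there, and its difference with IL-6 was not called (-0.11 ± 0.05, 0.101). Zdbf2 (highest library 0.198 FPKM, KO) and Nap1l5 (0.166 FPKM, KO), both paternally expressed, were under the level for testing.

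Of the 14 imprinted genes above 0 that were under the level for testing, 8 had a called difference between KO and WT without IL-6 when every gene above 0 in a library was fitted; giving this fit for single members was chosen after the data had been seen (limma, 40.2% of 27454 genes called, and 40.0% with IL-6). Ndn (0.98 on the log2 scale, adjusted p = 5.9e-05), Usp29 (0.86, 0.000322), Snrpn (0.40, 0.000294), Zim1 (0.40, 0.00796) and Zdbf2 (0.13, 0.0243) were higher in KO and were called with IL-6 as well. Rian (0.94, 0.0395) and Meg3 (0.49, 0.0420) were higher in KO without IL-6 and not called with it (0.0706 and 0.0836), and the carrier gene Slc22a18 was lower in KO (-0.42, 0.0383) without IL-6. With IL-6, 6 of the 14 were called, the 5 first named and Phlda2 (lower in KO, -0.40, 0.0410). These differences lie near the added 1 FPKM and understate the change.

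Sorting the members by the parental copy they are known to use, a textbook assignment written after these values had been seen, showed both directions in each class. Of 19 paternally expressed members, 13 had all 4 KO libraries above all 4 WT libraries, 2 (Plagl1 and Impact) had them all below, and 4 overlapped or were listed at 0 throughout. Of 16 maternally expressed members, the counts were 8 above, 2 below (Commd1 and Slc22a18) and 6 overlapping or at 0. Gnas, with products of both kinds, was above. Among all 27454 genes above 0 in any library, 22.2% had KO above WT in this way and 22.1% below. Of the 7 members listed at 0 in every WT library and above 0 in every KO library, 6 were paternally expressed (Peg3, Usp29, Peg10, Sgce, Snrpn and Kcnq1ot1) and 1 maternally (Zim1). Across the 27454 genes, 1.26% had this pattern, and the highest library of Kcnq1ot1 was only 0.0170 FPKM. Peg3 and Usp29 start 0.147 kb apart, and Sgce and Peg10 0.099 kb apart, so the 7 are not separate loci. The paternally expressed Plagl1, Impact, Zrsr1 and Airn were at 3.83 FPKM or more in every WT library, while no other paternally expressed member exceeded 1.58 FPKM in any WT library (Nnat). The maternally expressed members were split in a like way. H19, Cdkn1c, Copg2, Ube3a, Grb10, Commd1 and Trappc9 were at 6.09 FPKM or more in every WT library. No other maternally expressed member exceeded 0.776 FPKM in any WT library (Slc22a18).

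**Figure D3:**
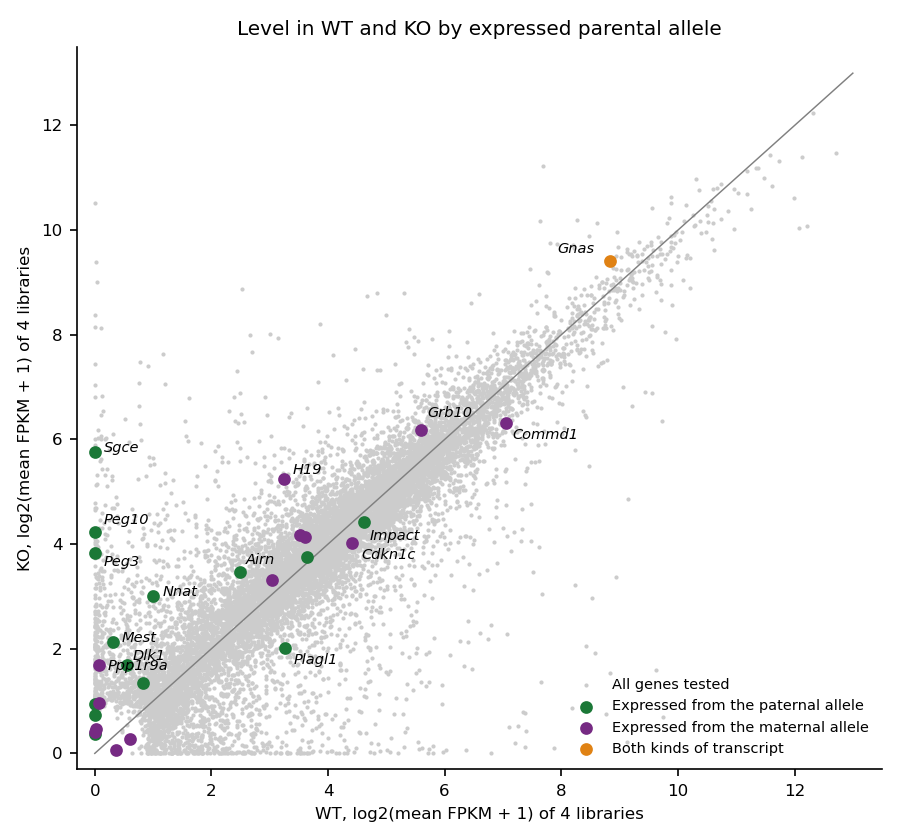
Mean level of 4 WT libraries against that of 4 KO libraries, log2(mean FPKM + 1), for all genes tested (grey) and for imprinted genes with a library at 0.25 FPKM or more, coloured by the parental copy they are known to use; the line marks equal levels. Sgce, Peg10 and Peg3 lie on the left edge, at 0 in WT, while Plagl1, Impact, Cdkn1c and Commd1 lie below the line.

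Levels of the genes around 6 members were compared in the same way. Without overlap, KO was above WT in 22.2% of all genes above 0 and below in 22.1%. Among the 13693 genes tested, the shares were 36.5% above and 33.9% below. Neighbours had to pass a cut of 0.25 FPKM, for which the share over all genes was not computed. Within 1000 kb of the start of Peg3, 14 genes that are not members had a mean of at least 0.25 FPKM in one of the genotypes. None of the 14 was listed at 0 in all WT libraries, 8 had KO above WT without overlap and none below, and their differences of log2(mean FPKM + 1) ran from 0.05 to 1.27, against 3.83 for Peg3. Around Sgce, 1 of 11 such genes (Tfpi2, itself imprinted in placenta) was listed at 0 in WT, 7 had KO above WT and 2 below, and the differences ran from -0.35 to 1.76. Casd1, at -146.4 kb from the start of Sgce, was at 3.70 to 4.26 FPKM in WT and 11.05 to 12.4 in KO. Around Mest none of 16 was listed at 0 in WT, 12 had KO above WT and 2 below, and the largest difference belonged to a gene not known as imprinted, Podxl, at 0.0538 to 0.109 FPKM in WT and 47.6 to 49.4 in KO. Around H19, 12 of 18 had KO above WT and 1 below, and the largest difference was that of Igf2 (3.42). Around Dlk1 the order was the reverse, with 2 of 14 above, 7 below and a median difference of -0.24. Around Snrpn both of the 2 such genes overlapped between the genotypes. Some of the neighbours counted belong to the second list of imprinted genes given below. They are Tfpi2, Casd1, Pon2 and Pon3 around Sgce, Igf2, Tspan32, Cd81, Tssc4 and Nap1l4 around H19, and Dio3 around Dlk1.

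**Figure D4:**
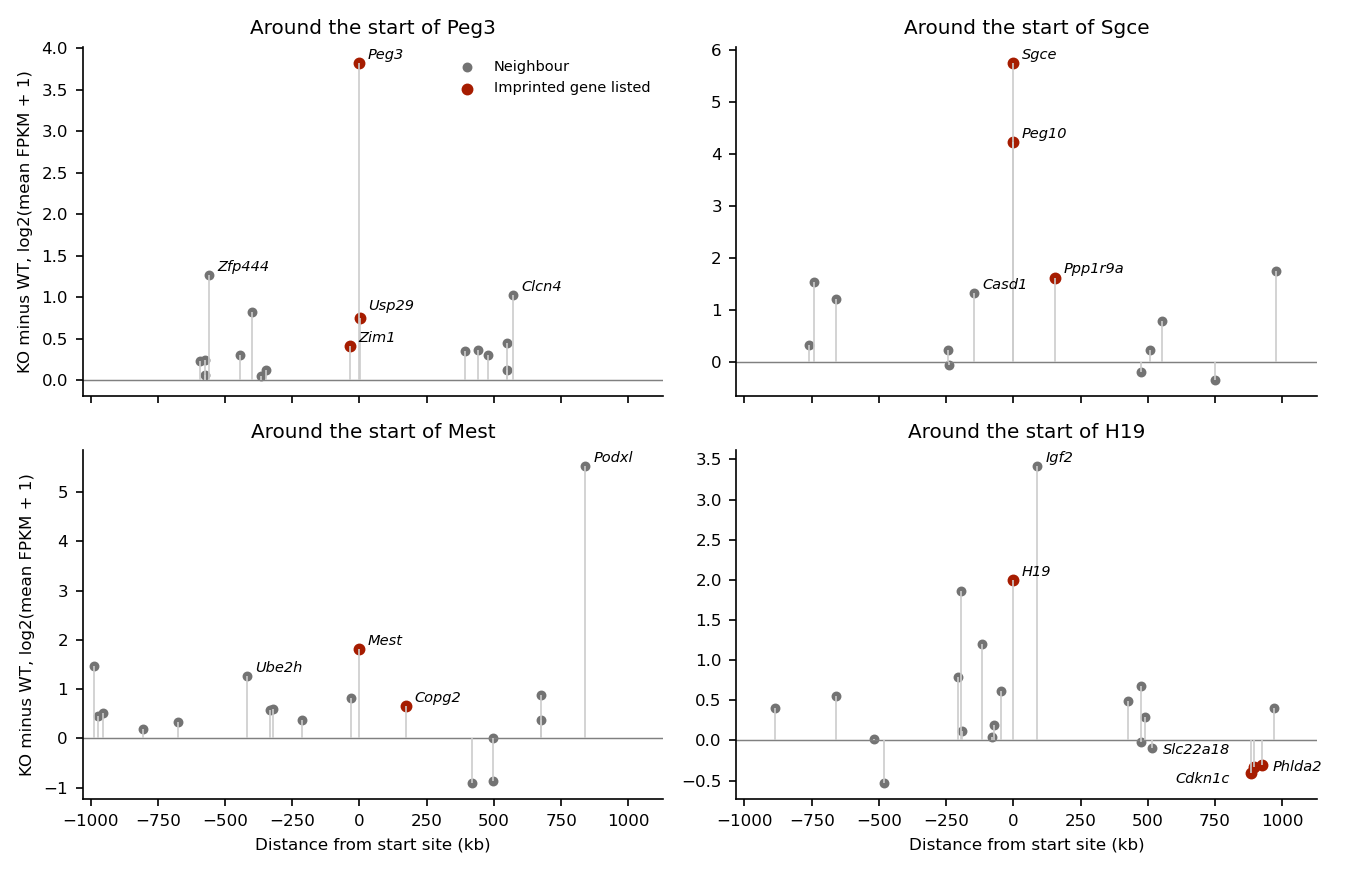
Difference between KO and WT in log2(mean FPKM + 1) over 4 libraries each, for genes within 1000 kb of the start of Peg3, Sgce, Mest and H19, by distance of their start site in kb; red points are listed imprinted genes. Around Peg3 and Sgce the largest differences sit at the anchor itself, whereas around Mest and H19 the neighbours Podxl and Igf2 exceed it.

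With IL-6, Copg2, H19, Grb10 and Zrsr1 fell in WT. There, 4 of the 20 members tested fell and none rose, beside 15.7% of all genes tested called (8.30% higher and 7.41% lower). Peg3, Peg10 and Sgce, listed at 0 in every WT library, could not fall. The 4 were all among the 13 members at 1 FPKM in both genotypes (30.8%). The changes were those of Copg2 (-0.48 ± 0.07 on the log2 scale, limma adjusted p = 0.00588), H19 (-0.39 ± 0.07, 0.0137), Grb10 (-0.27 ± 0.04, 0.00402) and Zrsr1 (-0.26 ± 0.06, 0.0320). For each of these 4, both WT libraries with IL-6 were below both without. The call of H19 was lost without untreated WT replicate 2 (adjusted p = 0.0764) or either WT library with IL-6 (0.0542 and 0.0745), and that of Zrsr1 without any 1 library other than untreated WT replicate 1 (0.0507 to 0.144). In KO, IL-6 gave no call among the 20 in limma (1 member, Ube3a, at an unadjusted p below 0.05), beside 0.0219% of all genes. The difference between the IL-6 changes of KO and WT was called for 1 member, Copg2 (0.51 ± 0.11, limma adjusted p = 0.0352, beside 6.06% of all genes called and 2.54% called in this direction), which fell in WT and changed by 0.04 ± 0.07 in KO. That call was lost without any 1 library other than untreated WT replicate 2 (0.0538 to 0.119).

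**Figure D5:**
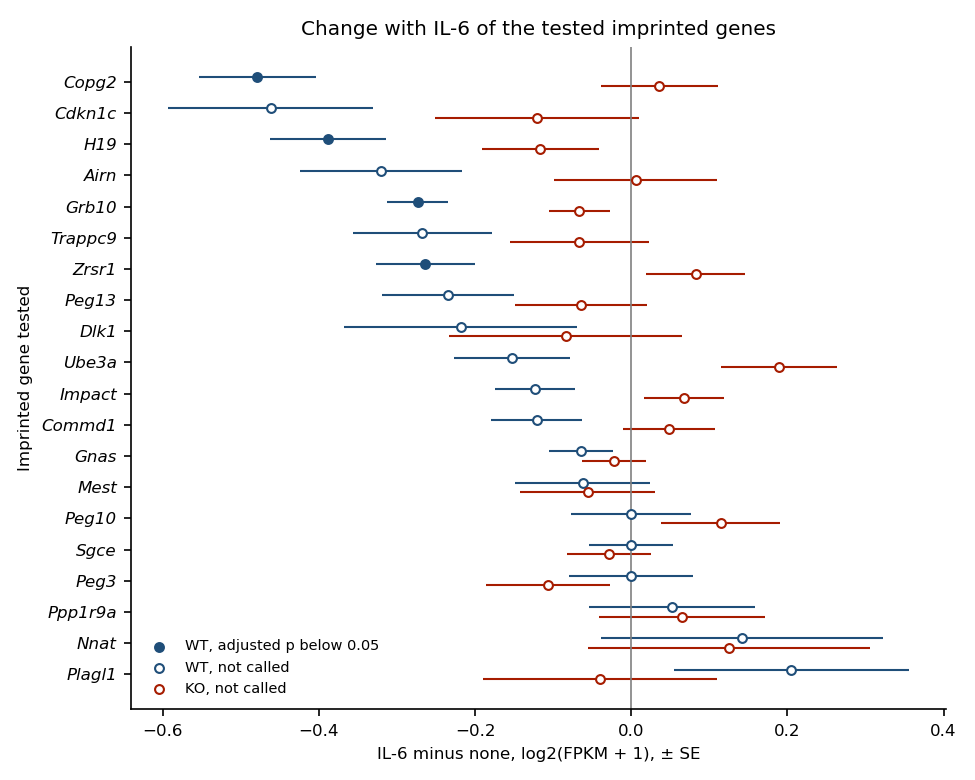
Change with IL-6 of the 20 imprinted genes tested, log2(FPKM + 1) with its standard error, in WT (blue) and KO (red); filled points passed an adjusted p of 0.05. Copg2, H19, Grb10 and Zrsr1 in WT are the filled points, from -0.48 to -0.26, and no KO point is filled.

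The other imprinted genes showed genotype differences in both directions too. Of 47 in a second list, 45 were in the files and 23 were tested, of which 15 rose and 7 fell in KO without IL-6, beside 36.4% and 34.5% of all genes, and 15 rose and 5 fell with it, beside 36.9% and 34.8%. Slc38a4, a paternally expressed amino acid carrier, had the largest fall of the 23, from 54.8 and 54.4 FPKM in untreated WT and 48.5 and 49.7 with IL-6 to 2.91 and 2.97 in untreated KO and 2.50 and 2.89 with IL-6 (-3.82 ± 0.06, limma adjusted p = 3.24e-09). Ampd3, an AMP deaminase, fell as well (-2.70 ± 0.09, 1.82e-07). Ddc, the aromatic amino acid decarboxylase next to Grb10, was listed at 0 in the 4 WT libraries and was at 8.26, 8.72, 6.95 and 7.78 FPKM in the KO libraries. Igf2, given above, rose by 3.48 ± 0.09 (4.14e-08). Among these 23, 5 were called with IL-6 in WT (3 higher and 2 lower), or 21.7% beside 15.7% of all genes.

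Genes that keep imprints or act on DNA methylation differed in both directions. Of 33, 30 were tested, and in KO without IL-6, 14 rose and 10 fell, 80.0% called beside 71.0% of all genes. Zfp57, the zinc finger protein of imprint maintenance, was at 1.38, 1.21, 1.14 and 0.977 FPKM in the WT libraries and 34.02, 33.6, 34.04 and 34.1 in the KO libraries (3.92 ± 0.07, limma adjusted p = 4.24e-09). Its partner Trim28 rose by 1.25 ± 0.08 (5.69e-06), the 5-methylcytosine oxidase Tet3 by 1.58 ± 0.06 (3.47e-07) and the histone methyltransferase Ezh2 by 1.13 ± 0.05 (7.43e-07). Dnmt1, the maintenance methyltransferase, fell slightly, by 0.21 on the log2 scale (SE 0.04, 0.00250). DNA methylation was not measured in these libraries.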

How the data were processed

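Per the labels' protocols, total RNA came from an RNeasy kit and the library kit was TruSeq stranded mRNA. Reads were aligned with HISAT2 and quantified with Cufflinks 2.2.1 on GRCm38.p6, per the submitters' processing notes, and the authors deposited FPKM per transcript (142869 transcripts a library). Whether counting used the strand is not given in the sources used here. FPKM were summed to genes by the name before the final hyphen and 3-digit number. Coordinates came from GENCODE on GRCm38, which holds 97.1% of the transcript names, and promoters from the RefSeq table given.

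The 13693 genes with 2 or more of the 8 libraries at 1 FPKM or above entered the test, limma 3.58.1 (R 4.3.3), fitted to log2(FPKM + 1) as 4 group means with 4 residual degrees of freedom, moderated variances that follow an intensity trend, and p-values adjusted by Benjamini-Hochberg over these genes. A fold change on this scale understates the change of low genes. Means and fold values without a test are of FPKM. Members, lists and comparisons were chosen with earlier results of these data known. Members called anywhere are given in each library, others by their highest library, and of the other lists the genes with the smallest p of KO against WT without IL-6. Arid5a, Igf2r, Casd1, Tfpi2, Podxl, Dnmt1, Snurf and the transcripts Mest-208, Mest-210, Gnas-211 and Grb10-203 were named outside this rule, after their values were seen. The library values of Usp29, Zim1, Ndn and Snrpn were added in the same way. Further lists were sex-linked genes and markers of fibroblast, neuron, astrocyte and radial glia (summed level 12.1 to 18.7 FPKM in WT, 4.11 to 5.36 in KO), skeletal muscle (0.119 to 0.200 and 0.366 to 0.749), epithelium, endothelium, macrophage (2.27 to 3.07 and 1.66 to 2.22), adipocyte (6.65 to 32.8 and 5.85 to 7.47), trophoblast, and germ line and pluripotent cells (0.296 to 0.527 and 1.24 to 1.57). Such sums can hide opposite differences. Fabp4 of the adipocyte list was at 6.44 to 32.7 FPKM in WT and at most 0.187 in KO. Pparg of that list was at most 0.228 FPKM in WT and 5.64 to 7.37 in KO. Slc1a3 (glia) and Cd68 (macrophage) were lower in every KO library, while Fabp7 and Csf1r of the same lists were higher.

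Depth was fitted to the steps between low values, of which 93.3 to 95.4% lay within 0.1 of a whole fragment. Alternatives were other pseudocounts, filters and scalings, a replicate block, fits of only the groups compared, no trend, and leaving out each library. Tables were handled in pandas 2.3.3 and numpy 2.4.6 under Python 3.11.15, and plots drawn in matplotlib 3.10.9.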

Additional observations from a re-analysis of the deposited data

Results flagged for a closer look

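Copg2 was the member whose change with IL-6 differed between the genotypes by the test of the difference itself: the change in KO minus that in WT was 0.51 on the log2 scale (SE 0.11, limma adjusted p = 0.0352). Its WT libraries held 13.2 and 11.6 FPKM alone and 8.15 and 9.03 after IL-6, and its KO libraries 16.6 and 17.2 alone and 17.8 and 16.9 after IL-6. The adjusted p ran from 0.0538 to 0.119 in the 7 fits without 1 library that lost the call. Whether reads from the overlapping gene Mest enter it was not tested; Mest was at 0.188 to 0.329 FPKM in WT and 3.25 to 3.49 in KO.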

How the results depend on the processing

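The genotype comparisons called 18 imprinted genes each, and these counts stayed within 1.5 times under every alternative run. Single calls of members (41 over the 5 comparisons) were refitted with an added 0.1 FPKM, no filter, quantile normalization, equal totals, the block and each library left out, and none changed direction; members not called were not refitted one by one. Without 1 library the genotype counts were 18 to 19 in both comparisons. The 4 calls for IL-6 in WT became 1 when only the 2 groups compared were fitted, and 2 to 5 without 1 library (2 without untreated WT replicate 2 or WT with IL-6 replicate 1). The single call for the difference between the IL-6 changes became 0 without a filter, 0 without an intensity trend, 2 with quantile normalization, 2 at equal total FPKM, and 0 to 1 without 1 library; the cause was not tested. With the replicate number as a block it became 0 (Copg2 adjusted p = 0.0655), and the IL-6 call of Zrsr1 in WT was lost (0.0575). Deviations of same-numbered libraries correlated at -0.097 to 0.055, so no large effect shared by the number was seen. Weak correlations cannot tell whether such libraries came from one culture or embryo, which the labels do not give. Without a filter, Zrsr1 with IL-6 in WT (0.0662) and the difference of Copg2 (0.0945) also missed the threshold. Over all genes, at equal total FPKM 34.8% of the IL-6 calls in WT were higher, against 52.8% as reported, and 55.1% against 41.9% for the difference between changes. Where a group was left with 1 library, it was assumed to vary like the other groups. Depth is known only through the fitted fragment value, and genes under 1 FPKM rest on few fragments.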
